A study of Rattus norvegicus with 9 samples.

Results

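Genes for calcium handling by the sarcoplasmic reticulum, the internal calcium store of heart muscle cells, were followed in RNA sequencing of rat left ventricle. They are 10 genes chosen by name, Atp2a2, Pln, Sln, Ryr2, Casq2, Trdn, Jph2, Hrc, Cacna1c and Slc8a1, and all 10 were found among the 22608 genes of the deposited tables. Each of the 10 passed the filter on low counts, which kept 15467 genes. Sln passed only through saline libraries 2 and 3 and NaBu library 4, and the other 9 had counts in every library.

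In a heart muscle cell an action potential opens L-type calcium channels in the surface membrane and its tubules. The calcium that enters opens ryanodine receptors, and the sarcoplasmic reticulum releases the bulk of the calcium that starts contraction. Relaxation follows as a calcium pump returns it to the store and an exchanger moves the rest out of the cell.

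The samples came from hearts of Sprague-Dawley rats, given an age of 8 weeks plus 28 days by the labels, in 3 groups of 3 libraries each. One group received saline and one angiotensin II (Ang II), the effector hormone of the renin-angiotensin system, which constricts vessels and is infused in rodents as a model of hypertension and cardiac fibrosis. The last received Ang II together with sodium butyrate (NaBu), a bacterial fermentation product known as a histone deacetylase inhibitor, and is called the NaBu group here. No group analysed here received NaBu without Ang II, and the labels give no dose. They also do not give the number of animals in a group, so each p-value reflects differences among these libraries that may be technical. The columns of the NaBu group are numbered 2, 4 and 6 in the deposited table.

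Total estimated counts ranged from 29284780 in saline library 3 to 49865446 in NaBu library 6. Markers of cardiomyocytes, of ventricular cardiomyocytes, fibroblasts and endothelial cells were found in all 9 libraries. The 8 atrial markers (Nppa, Myl7, Myl4, Bmp10, Stard10, Dkk3, Nr2f1 and Nr2f2) summed to 5804 CPM (counts scaled to the library total) in saline library 2, to 172 and 332 CPM in saline libraries 1 and 3, and to between 89.6 and 226 CPM in the 6 libraries of the other groups. The 5 ventricular markers summed to 6267 CPM in saline library 2 and to between 15371 and 19877 CPM in the other 8. In CPM, saline library 2 was also the lowest of the 9 for 7 of the 10 genes and the highest for Sln and Trdn. Its TMM factor, 1.14, was the largest, and part of this order depends on that scaling. Relative to library totals alone, Atp2a2 was lower in Ang II library 1 (237865 of 31367765 estimated counts) than in saline library 2 (262321 of 32999828). Levels in CPM are not per length and are not compared between genes. In bulk tissue, fewer cells of a type and less RNA per cell cannot be told apart.

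RefSeq promoter windows (build GRCr8, from 250 bases before to 50 bases after an annotated start) matched 9 of the 10 genes (not Sln). The windows of Pln, Atp2a2 and Cacna1c are shown because the comparisons with the NaBu group turn on these genes. Capitals mark exact matches, on either strand, to a CCAAT box (CCAAT), a GC box (GGGCGG), an MCAT element (CATTCC) or a TATA box (TATAAA).
Pln, chr20:33172244-33172543, plus strand: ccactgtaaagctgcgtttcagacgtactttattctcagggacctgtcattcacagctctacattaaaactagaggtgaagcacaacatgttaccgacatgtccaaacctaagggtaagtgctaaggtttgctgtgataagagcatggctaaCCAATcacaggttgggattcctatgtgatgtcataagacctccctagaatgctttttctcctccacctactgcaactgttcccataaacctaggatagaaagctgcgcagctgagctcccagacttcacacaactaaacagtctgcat
Atp2a2, chr12:39733269-39733568, plus strand: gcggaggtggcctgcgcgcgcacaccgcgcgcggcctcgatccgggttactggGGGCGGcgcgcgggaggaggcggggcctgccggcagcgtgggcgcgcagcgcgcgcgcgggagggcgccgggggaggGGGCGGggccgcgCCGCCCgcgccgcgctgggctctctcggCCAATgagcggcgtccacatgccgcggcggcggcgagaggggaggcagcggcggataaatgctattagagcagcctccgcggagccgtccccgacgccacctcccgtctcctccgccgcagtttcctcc
Cacna1c, chr4:154051699-154051998, minus strand: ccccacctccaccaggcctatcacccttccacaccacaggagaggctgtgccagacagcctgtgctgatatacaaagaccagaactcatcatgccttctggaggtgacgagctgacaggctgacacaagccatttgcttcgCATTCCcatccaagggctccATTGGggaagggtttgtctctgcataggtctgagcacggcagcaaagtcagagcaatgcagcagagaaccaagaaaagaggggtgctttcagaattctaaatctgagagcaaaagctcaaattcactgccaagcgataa

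The 3 windows differed in base composition. That of Atp2a2 was 79% G and C, that of Pln 45% and that of Cacna1c 51.7%. A CCAAT box stood once in each of the 3, and 37.5% of the 33469 rat promoter windows held one. GC boxes stood 3 times in the Atp2a2 window, 3 times in that of Ryr2 and in no other of the 9, against 33.1% of all windows. An MCAT element, a sequence known from cardiac muscle promoters, stood once in the Cacna1c window and in 14.2% of all windows. None of the 9 windows held a TATA box (14.2% of all), the MEF2-like pattern CTANNNNTAG (3.84%) or the GATA pattern AGATAA (11.6%). No marked matches overlapped in the 3 windows shown. A match is a description of these letters, and factor binding was not measured.

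**Figure D1:**
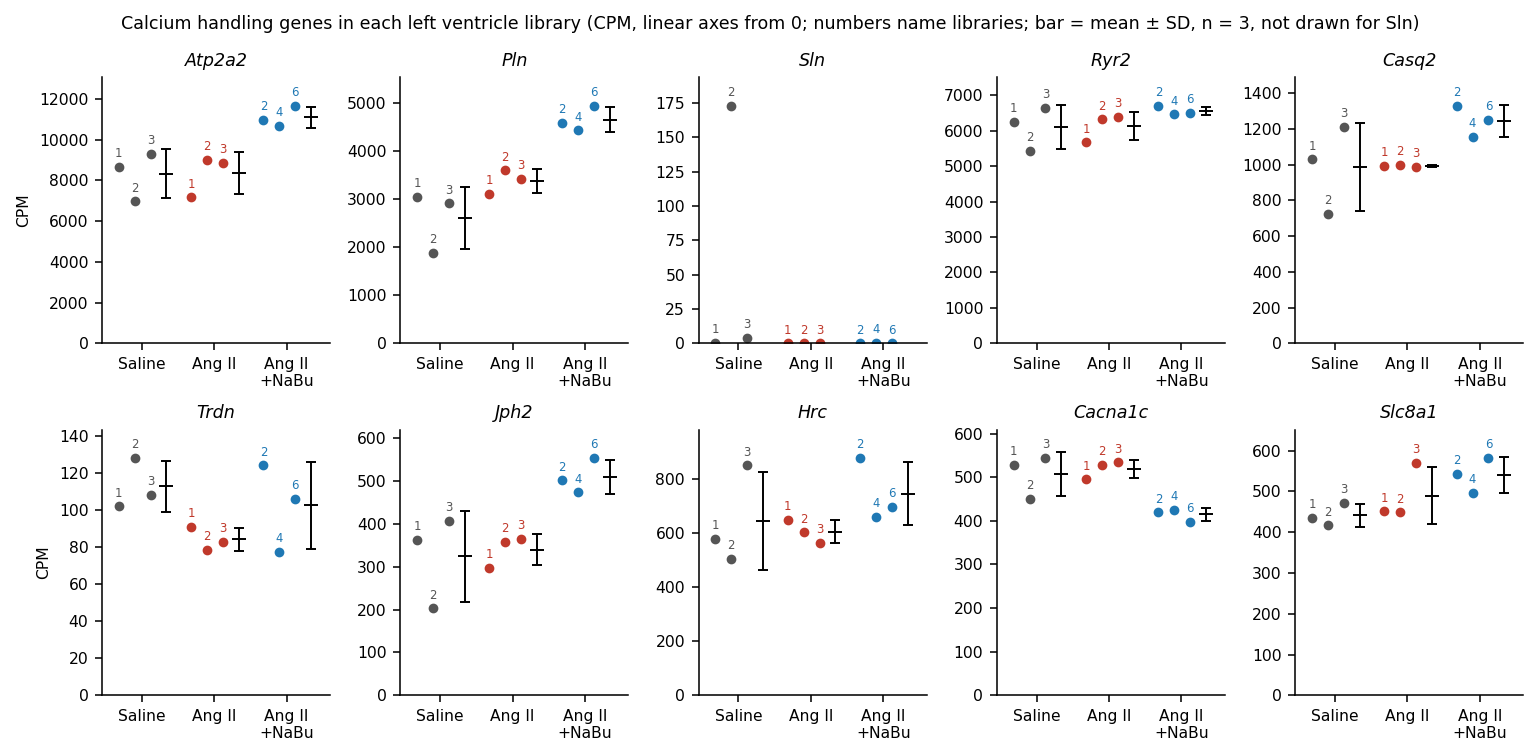
Level of each of the 10 calcium handling genes in CPM (vertical axis, linear, from 0) in each of the 9 libraries (points, numbered by library), with the mean and SD of each group of 3 beside them except for Sln. The 3 NaBu libraries lie above the other 6 for Atp2a2 and Pln and below the other 6 for Cacna1c, and saline library 2 alone is high for Sln.

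Pln encodes phospholamban, the small membrane protein that holds the calcium pump back until it is phosphorylated. Its level was 3053, 1877 and 2912 CPM in saline libraries 1, 2 and 3, 3106, 3603 and 3419 CPM in Ang II libraries 1, 2 and 3, and 4587, 4434 and 4943 CPM in NaBu libraries 2, 4 and 6. The 3 groups stood in the order saline, Ang II, NaBu and no library of one overlapped another. Pln rose in the NaBu group against saline, from 2614 ± 642 to 4655 ± 261 CPM (SD, n = 3), 1.78-fold, or 0.83 on the log2 scale (SE 0.171, 95% interval 0.45 to 1.21, edgeR adjusted p = 0.0305). It was the single called gene of the 10 (adjusted p under 0.05), while 5.06% of the 15467 genes tested were called in that comparison.

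The Pln difference depended on which libraries were in the fit. Without saline library 2 it was 0.66 on the log2 scale (edgeR adjusted p = 0.0198), and it was also called without saline library 1 (0.0406), saline library 3 (0.0281) or Ang II library 1 (0.0436). The adjusted p was 0.0626 without Ang II library 2, 0.0631 without Ang II library 3, and 0.0933, 0.0729 and 0.133 without NaBu library 2, 4 or 6, with log2 differences from 0.79 to 0.87. With the Ang II libraries out of the fit it was 0.0975, and in DESeq2 it was 2.58e-05. Between saline and Ang II, Pln differed by 0.37 on the log2 scale (SE 0.17, interval -0.01 to 0.75, edgeR adjusted p = 0.839). Between Ang II and NaBu it differed by 0.46 (SE 0.17, interval 0.09 to 0.84, edgeR adjusted p = 0.151).

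Atp2a2 encodes SERCA2, the calcium pump of the sarcoplasmic reticulum in heart muscle. It was at 8662, 6974 and 9310 CPM with saline, 7161, 8996 and 8873 CPM with Ang II and 10957, 10658 and 11653 CPM in the NaBu group. All 3 NaBu libraries lay above the other 6, and the saline and Ang II libraries overlapped. The mean was 11089.5 ± 511 CPM with NaBu and 8343 ± 1026 CPM with Ang II (SD, n = 3), a log2 difference of 0.41 (SE 0.137, interval 0.11 to 0.72) that did not pass the test over all genes (edgeR adjusted p = 0.123). Against saline it was 0.42 (SE 0.137, edgeR adjusted p = 0.0995), and between Ang II and saline it was 0.00 (interval -0.30 to 0.31).

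The pump gene and its inhibitor were also set against each other within each library, a ratio chosen after the values were seen and therefore given with no test. Saline libraries held 35.2, 26.9 and 31.3 Pln counts per 100 Atp2a2 counts, a mean of 31.1 ± 4.17 (SD, n = 3). Ang II libraries held 43.4, 40 and 38.5 (40.7 ± 2.48) and NaBu libraries 41.9, 41.6 and 42.4 (42 ± 0.412). The ratio was higher in each library of both groups given Ang II than in each saline library, and the Ang II and NaBu libraries overlapped. Leaving out saline library 2, the lowest, does not remove the gap, since the highest saline value was that of library 1. How often the ratio of 2 genes separates in this way was not computed. For single genes in CPM, Ang II and saline did not overlap for 9.88%.

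Atp2a2 counts were divided over 2 RefSeq transcripts in the tables. NM_001110823.2 took 15.1, 19.1 and 16.3% of them in the saline libraries, 17.8, 11.8 and 12.5% in the Ang II libraries and 7.38, 8.07 and 7.48% in the NaBu libraries. All 3 NaBu libraries lay below the other 6, at 7.64 ± 0.375% against 14.1 ± 3.29% with Ang II and 16.8 ± 2.07% with saline (SD, n = 3). The other transcript, NM_001110139.2, took the rest, 92.4% in the NaBu group and 85.9% with Ang II, a difference of 6.43 percentage points (two-sided exact permutation p = 0.1, the smallest that 3 against 3 allows; 0.3 adjusted over 15 tests). Against saline the difference was 9.17 points (two-sided exact permutation p = 0.1, adjusted 0.3). The share of the most abundant transcript did not overlap between groups for 14% of 5896 genes in either of these comparisons.

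In transcript CPM the 2 lines differed in opposite directions between Ang II and NaBu, and neither passed the test. NM_001110823.2 was at 1278, 1064 and 1113 CPM with Ang II and 808, 860.4 and 872 CPM with NaBu, which gave -0.43 on the log2 scale (SE 0.094, edgeR adjusted p = 0.277 over 31914 transcripts), and against saline the difference was -0.69 (SE 0.0942, adjusted p = 0.0883). NM_001110139.2 was at 5883, 7932 and 7759.5 CPM with Ang II and at 10148, 9798 and 10782 CPM with NaBu (log2 0.53, SE 0.159, edgeR adjusted p = 0.394). Neither transcript overlapped between Ang II and NaBu, and 20.9% of all transcripts did not overlap between these groups. Neither overlapped between NaBu and saline, against 18.3% of all transcripts. No transcript of the 10 genes was called in any of the 3 comparisons, where edgeR called 0.0125%, 0.0157% and 0.0689% of all transcripts for Ang II against saline, NaBu against Ang II and NaBu against saline. How the authors divided reads between transcripts is not given in the sources used here.

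**Figure D2:**
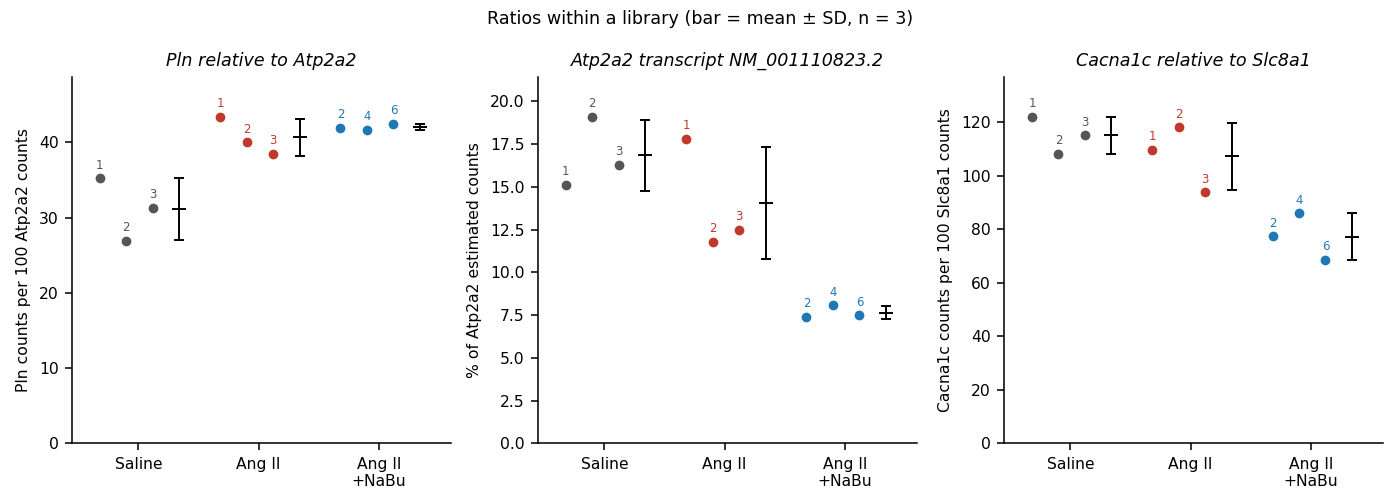
Ratios within each of the 9 libraries (points, numbered by library; bars give mean ± SD, n = 3; vertical axes from 0): Pln counts per 100 Atp2a2 counts, the share of Atp2a2 counts in transcript NM_001110823.2 in percent, and Cacna1c counts per 100 Slc8a1 counts. The Pln ratio is lower in the 3 saline libraries (26.9 to 35.2) than in the other 6 (38.5 to 43.4), while the transcript share (7.38 to 8.07%) and the Cacna1c ratio (68.5 to 85.9) are lower in the 3 NaBu libraries than in the other 6.

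Sln encodes sarcolipin, a second small inhibitor of the pump, which in rodent hearts is known as an atrial transcript. It was at 0.15, 173 and 4.01 CPM in saline libraries 1, 2 and 3, at 0 CPM in all 3 Ang II libraries, and at 0, 0.34 and 0 CPM in NaBu libraries 2, 4 and 6. Saline library 2 held 6508 of its estimated counts, saline library 3 held 104, and no other library held more than 13. One fragment was taken as about 4 estimated counts, so that 0 counts allow up to 12 estimated counts a library, which is between 0.277 and 0.361 CPM in the Ang II libraries. The saline mean was at least 179.6-fold higher than that limit with all libraries, and at least 6.32-fold higher without saline library 2, with saline library 1 itself under the limit. The edgeR adjusted p was 0.721 for Ang II and 0.0738 for NaBu against saline. The 3 genes most like Sln over the 9 libraries, by the Pearson r of log2 CPM among 10153 genes, were Mybphl (0.995), Bmp10 (0.986) and Neb (0.986), and Bmp10 is one of the atrial markers. Since Sln was at most 0.34 CPM outside saline libraries 2 and 3, these r values rest largely on those libraries. The part of atrial tissue in the Sln values was not tested.

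Ryr2, Casq2, Trdn, Jph2 and Hrc form the release side of the store. Ryr2 encodes the ryanodine receptor, the release channel itself, and it was the least variable of the 10, with the highest library 1.24 times the lowest. It was at 6257, 5422 and 6637 CPM with saline, 5673, 6322 and 6386 CPM with Ang II and 6697, 6463 and 6509 CPM with NaBu. The log2 difference was 0.01 for Ang II against saline (SE 0.109, interval -0.24 to 0.25) and 0.10 for NaBu against Ang II (interval -0.15 to 0.34, edgeR adjusted p = 0.643). Transcript NM_001191043.1 took at least 99.7% of Ryr2 counts in each library.

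Jph2 encodes junctophilin 2, which ties the sarcoplasmic reticulum to the surface membrane so that channel and receptor face each other. It was at 362, 203 and 406 CPM with saline, 297, 358 and 364 CPM with Ang II and 501, 473 and 553 CPM with NaBu, where all 3 libraries lay above the other 6. The mean of 509 ± 40.7 CPM in the NaBu group against 339.6 ± 37.3 CPM with Ang II (SD, n = 3) gave a log2 difference of 0.58 (SE 0.217, interval 0.10 to 1.07, edgeR adjusted p = 0.156). Against saline it was 0.65 (SE 0.217, edgeR adjusted p = 0.102), or 0.42 without saline library 2, and Ang II against saline gave 0.07, or -0.18 without that library. The smaller of 2 Jph2 transcripts, NM_001037974.1, was at 24.9, 30.5 and 24.9 CPM with Ang II and 48.3, 63.8 and 88.8 CPM with NaBu, with no overlap (log2 1.34, SE 0.491, edgeR adjusted p = 0.473). It took 7.92 ± 0.943% of Jph2 counts with Ang II and 13.1 ± 3.22% with NaBu (SD, n = 3), and 15.8% in saline library 3.

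Casq2 encodes cardiac calsequestrin, the protein that binds calcium inside the store. It was at 1030, 723 and 1210 CPM with saline, 993, 1000 and 986 CPM with Ang II and 1329, 1155 and 1251 CPM with NaBu. The NaBu libraries lay above those of Ang II but overlapped those of saline (log2 0.33 in both comparisons, SE 0.164, edgeR adjusted p = 0.273 against Ang II and 0.241 against saline), and without saline library 2 the difference from saline was 0.17. Hrc, the histidine-rich calcium-binding protein of the same lumen, was at 578, 505 and 851 CPM with saline, 649, 603 and 564 CPM with Ang II and 878, 661 and 697 CPM with NaBu. In CPM its NaBu libraries also lay above those of Ang II and overlapped those of saline (log2 0.30 against Ang II, SE 0.188, edgeR adjusted p = 0.381). Trdn encodes triadin, which anchors calsequestrin to the receptor. It was at 102, 128 and 108 CPM with saline, at 90.8, 78.5 and 82.9 CPM with Ang II, and at 124, 77.3 and 106 CPM with NaBu. In CPM each Ang II library lay below each saline library (log2 -0.42, SE 0.163, edgeR adjusted p = 0.774, or -0.32 without saline library 2). The NaBu libraries overlapped both other groups, with a log2 difference of 0.29 from Ang II (SE 0.163, edgeR adjusted p = 0.333).

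Cacna1c and Slc8a1 encode the surface membrane proteins of the cycle. Cacna1c encodes the pore of the L-type calcium channel and was the one gene of the 10 with a lower mean in the NaBu group than with Ang II. It was at 528, 451 and 544 CPM with saline, 495, 528 and 534 CPM with Ang II and 420, 426 and 398 CPM with NaBu, where all 3 libraries lay below the other 6. The mean was 415 ± 14.6 against 519 ± 20.8 CPM with Ang II (SD, n = 3), a log2 difference of -0.32 (SE 0.102, interval -0.55 to -0.10, edgeR adjusted p = 0.11), and -0.29 against saline (edgeR adjusted p = 0.115). The direction was that of the summed counts of its 5 transcripts. With the highest transcript of each library in place of the sum, the differences were 0.25 against Ang II and 0.12 against saline. That transcript was XM_006237159.3 in Ang II library 3 and NaBu library 6 and XM_017592434.1 in the others. The transcripts were divided very differently between libraries, with XM_017592434.1 at 59.4, 45.1 and 14.7% and XM_006237159.3 at 5.3, 12.7 and 54.5% of Cacna1c counts in NaBu libraries 2, 4 and 6. NM_012517.2, at 12.4 ± 0.618% of Cacna1c counts with saline and 7.11 ± 1.37% with Ang II (SD, n = 3), did not overlap between these groups, and in CPM its log2 difference was -0.78 (SE 0.247). Between Ang II and saline, 9.51% of all transcripts did not overlap. The share of XM_017592434.1 did not overlap either and was lower with Ang II (29.9 ± 1.73 against 39.2 ± 5.78%, two-sided exact permutation p = 0.1, adjusted 0.3), where the share of the most abundant transcript did not overlap for 9.7% of genes.

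Slc8a1 encodes the sodium-calcium exchanger NCX1, the main route by which calcium leaves the cell. It was at 435, 417 and 472 CPM with saline, 451, 449 and 570 CPM with Ang II and 543, 496 and 582 CPM with NaBu. In CPM the NaBu libraries lay above those of saline (log2 0.29, SE 0.122, interval 0.02 to 0.56, edgeR adjusted p = 0.174) and overlapped those of Ang II (log2 0.14, SE 0.122, edgeR adjusted p = 0.535). Per 1000 summed counts of the cardiomyocyte markers given below, NaBu also overlapped saline (3.5, 3.51 and 3.95 against 3.17, 3.71 and 3.11). Its 22 transcripts each took a small share, led by XM_006239660.3 at 14.4 ± 1.24% with saline, 17.8 ± 5.78% with Ang II and 22 ± 2.37% with NaBu (SD, n = 3). The ratio of channel to exchanger, chosen after the values were seen, was 122, 108 and 115 Cacna1c counts per 100 Slc8a1 counts with saline, 109.7, 118 and 93.7 with Ang II and 77.3, 85.9 and 68.5 with NaBu. The NaBu values lay below the other 6, while saline and Ang II overlapped. How often ratios of other genes separate in this way was not computed.

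Across the 10 genes, Ang II was set against saline to ask what 28 days of the hormone did. No gene of the 10 was called, and none of the 15467 was (0%). At an unadjusted p under 0.05 there were 2 of the 10, Sln and Trdn, both lower, against 5.94% of all genes, and DESeq2 called 0 of the 10 and 60 genes in all (0.347% of those it gave an adjusted p). The Ang II and saline libraries did not overlap for 3 of the 10, with Pln higher (4.93% of all genes) and Sln and Trdn lower (4.95%), against 9.88% of all genes in either direction. For Sln, saline library 1 was itself under the limit for 0 counts. The Sln separation is therefore not resolved at this depth, which leaves Pln and Trdn in CPM. Per 1000 summed counts of the cardiomyocyte markers given below, Trdn overlapped, at 0.721 in Ang II library 1 and 0.711 in saline library 3. Pln did not overlap on that scale. Means were higher for 7 (49% of all genes) and lower for 3, with a median log2 difference of 0.01 against 0.00 over all genes tested. Without saline library 2 the means were higher for 2 of the 10 and the median was -0.14.

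The comparison of the NaBu group with Ang II asks what adding NaBu did. Again edgeR called none of the 10, against 1.6% of all genes. At an unadjusted p under 0.05 there were 4 of the 10, against 22.4% of all genes, and these 4 (Atp2a2, Pln and Jph2 higher, Cacna1c lower) were called by DESeq2, with adjusted p-values of 0.0207, 0.0379, 0.0388 and 0.0206, against 13.1% of the genes to which DESeq2 gave an adjusted p. Means were higher for 9 of the 10 (47.3% of all genes), and one of these, Sln, rests on 13 estimated counts in NaBu library 4 alone, so that its mean is under the limit for 0 counts. The median log2 difference was 0.31 against -0.02 over all genes. The groups did not overlap in CPM for 7 of the 10, against 35.6% of all genes. Atp2a2, Pln, Ryr2, Casq2, Jph2 and Hrc were higher (18.1% of all genes) and Cacna1c was lower (17.5%). Ryr2 turned to -0.01 with library totals in place of TMM scaling. Hrc overlapped on library totals, with 21571 of 31367765 estimated counts in Ang II library 1 and 25228 of 38865038 in NaBu library 4.

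The number called depended on the libraries in the fit. With only the Ang II and NaBu libraries in the fit, 9 of the 10 passed the filter, without Sln. Of these edgeR called 5, and 1802 genes in all. The edgeR adjusted p-values were 0.0269 for Atp2a2, 0.0145 for Pln, 0.0146 for Jph2, 0.0281 for Casq2 and 0.026 for Cacna1c. Leaving out saline library 2 alone gave the same 5 genes, although it belongs to neither group of this comparison, and 1482 genes in all. Leaving out any other single library gave none of the 10. The full fit tested 15467 genes. The numbers tested in these smaller fits are not reported here, so the calls stand without a share of all genes.

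In the comparison of NaBu with saline, 5 of the 10 did not overlap in CPM, against 28.6% of all genes. Atp2a2, Pln, Jph2 and Slc8a1 were higher (14.5% of all genes) and Cacna1c was lower (14.1%). Relative to the cardiomyocyte markers given below, Slc8a1 overlapped, while Atp2a2, Pln, Jph2 and Cacna1c did not. At an unadjusted p under 0.05 there were 6 of the 10 (these 5 and Sln), against 24.6% of all genes. Means were higher for 7 (44.7% of all genes) and lower for 3. The median log2 difference was 0.25 against -0.05 over all genes, and 0.12 without saline library 2. Without saline library 2, Pln alone of the 10 was called, where the fit called 293 genes as higher and 141 as lower. The number of genes tested in that fit is not reported here. The log2 differences were then 0.32 for Atp2a2, 0.66 for Pln, 0.42 for Jph2, 0.27 for Slc8a1 and -0.36 for Cacna1c. For Casq2, Hrc, Ryr2 and Trdn, which overlapped, they went from 0.33 to 0.17, from 0.21 to 0.07, from 0.10 to 0.04 and from -0.14 to -0.02. DESeq2 called 4 of the 10 (Atp2a2, Pln, Jph2 and Cacna1c), against 15.2% of the genes to which it gave an adjusted p. The 3 comparisons share libraries in pairs, so they are not independent of each other.

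**Figure D3:**
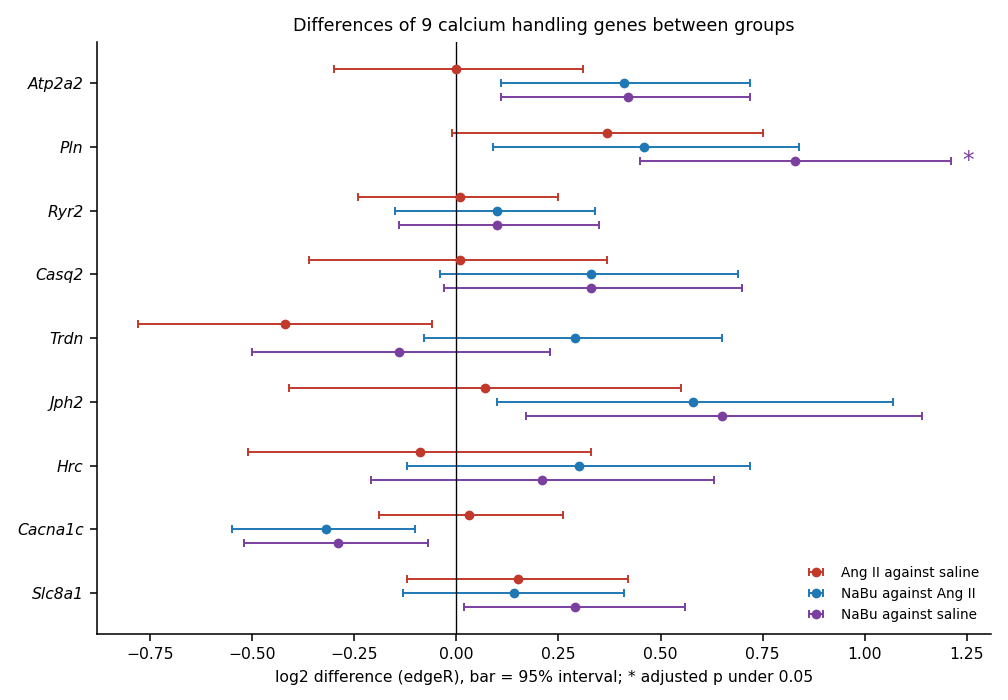
Difference between groups in log2 units (horizontal axis, edgeR; bars give 95% intervals) for 9 of the 10 genes, without Sln, in the 3 comparisons (colours). The asterisk marks an adjusted p under 0.05, which only Pln had, in NaBu against saline (0.83, interval 0.45 to 1.21), and the Cacna1c points for NaBu lie to the left of 0 at -0.32 and -0.29.

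Cardiomyocyte markers were also set beside these differences. The 9 markers (Myh6, Actc1, Actn2, Tnnt2, Tnni3, Tnnc1, Ttn, Mybpc3 and Ckm) summed to between 112463 and 151784 CPM with saline, between 125904 and 136161 CPM with Ang II and between 141512 and 155262 CPM with NaBu. None of the 9 was called, and 8 of them had a higher mean in the NaBu group than with Ang II (median log2 difference 0.12). Relative to their summed counts, a denominator added after the data were seen, Pln stood at 22.2, 16.7 and 19.2 counts per 1000 marker counts with saline, 24.7, 26.5 and 25.2 with Ang II and 29.5, 31.3 and 33.6 with NaBu, again with no overlap among the groups. Atp2a2 stood at 56.9, 66.1 and 65.3 with Ang II and 70.6, 75.3 and 79.2 with NaBu, and the log2 ratio of the group means was 0.26, smaller than the 0.41 of the edgeR fit.

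On this scale Jph2 had a log2 ratio of 0.43 between NaBu and Ang II, Casq2 0.17 and Pln 0.31, and none of these 3 overlapped between the 2 groups. Ryr2 (-0.06), Hrc (0.13) and Slc8a1 (-0.02) overlapped, where the fit gave 0.10, 0.30 and 0.14. Trdn also overlapped, at 0.689 ± 0.129 counts per 1000 with NaBu and 0.636 ± 0.0758 with Ang II (SD, n = 3). The share of all genes without overlap on this scale was not computed, and in CPM it was 35.6%. Cacna1c stood at 3.93, 3.88 and 3.93 counts per 1000 with Ang II and 2.7, 3.01 and 2.71 with NaBu, a log2 ratio of -0.48, larger in size than the -0.32 of the fit. With Ttn, the giant sarcomere protein with the longest transcript, out of the sum the ratios were 0.19 for Atp2a2, 0.24 for Pln, 0.36 for Jph2, 0.10 for Casq2 and -0.54 for Cacna1c, and Casq2 then overlapped. Skeletal muscle markers summed to at most 5.29 CPM in every library.

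**Figure D4:**
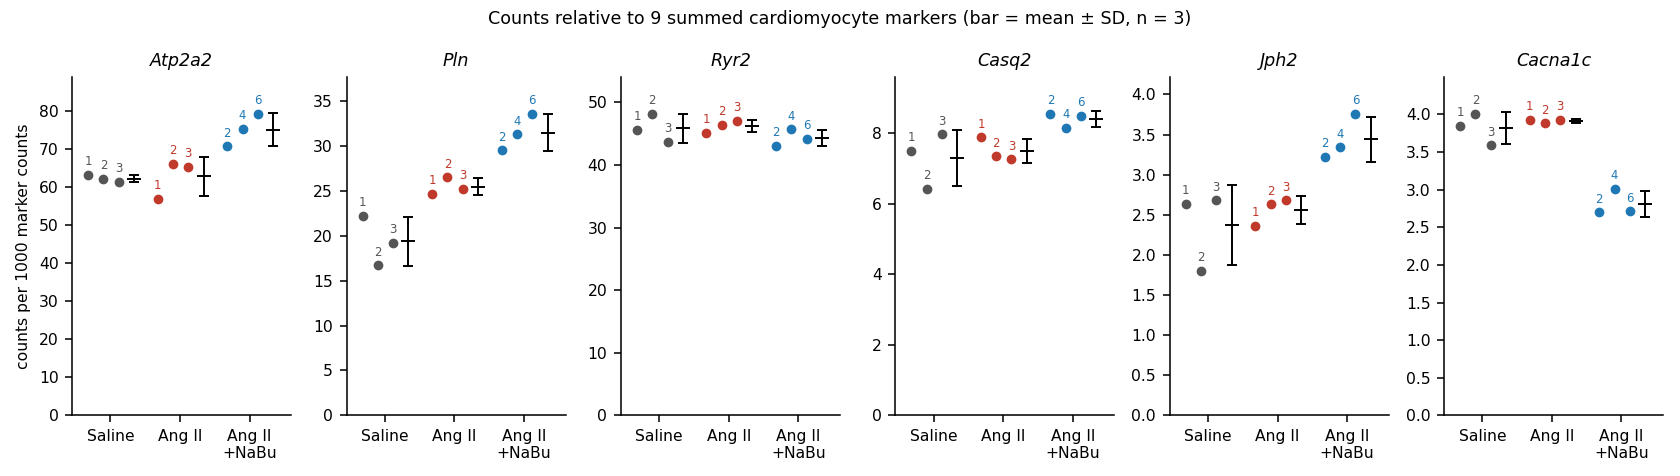
Counts per 1000 summed counts of 9 cardiomyocyte markers (vertical axes, from 0) for 6 of the genes in each of the 9 libraries (points, numbered by library; bars give mean ± SD, n = 3). Pln separates all 3 groups (16.7 to 22.2, 24.7 to 26.5 and 29.5 to 33.6), Ryr2 does not separate them, and Cacna1c is lowest in the 3 NaBu libraries (2.7 to 3.01).

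The genes most like each member over the 9 libraries, by the Pearson r of log2 CPM among genes with a mean of at least 5 CPM, are given as a description, since the points share libraries, group differences and the low values of saline library 2. For Pln they were Pdk1 (r = 0.993), Osbpl8 (0.991) and Dyrk1a (0.990). Pdk1 was at 438, 243 and 441 CPM with saline, 416, 489 and 491 CPM with Ang II and 693, 664 and 747 CPM with NaBu. For Atp2a2 they were Crat (0.994), Timm23 (0.992) and Mrpl4 (0.991), and those of Jph2 included Mb (0.995) and Hspa9 (0.994). Those of Cacna1c included Gal3st3 (0.965) and Iws1 (0.952), and Iws1 was at 65.4, 59.3 and 66.3 CPM with saline, 64.1, 62.5 and 64.3 CPM with Ang II and 56.3, 54.9 and 50.3 CPM with NaBu. Among the members themselves, Atp2a2 and Jph2 had r = 0.96 and Pln and Jph2 0.93, while Cacna1c had a negative r with each of the 8 members other than Sln.

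A wider list of 76 genes of calcium handling, chosen with earlier results of these data known, placed the 10 among their partners. Of these, 70 passed the filter. Jph4, Fkbp1b, Cacna1s, Atp2b3 and Mrln did not pass and Strit1 was not analysed here. Between Ang II and saline none of the 70 was called, 29 had a higher and 41 a lower mean, and the median log2 difference was -0.03. Between NaBu and Ang II 2 rose and 2 fell, against 0.647% and 0.957% of all genes, with a median of 0.09. Between NaBu and saline 5 rose and 2 fell, against 3.01% and 2.05% of all genes, with a median of 0.01.

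The 5 genes that rose in the NaBu group against saline included genes of the store and of the channel. Asph, whose locus encodes the junctional protein junctin as well as aspartate beta-hydroxylase, was at 162, 144 and 190.5 CPM with saline, 166, 153 and 159 CPM with Ang II and 278, 218 and 272 CPM with NaBu. It rose against saline by 0.63 on the log2 scale (SE 0.13, edgeR adjusted p = 0.0306) and against Ang II by 0.68 (SE 0.13, edgeR adjusted p = 0.0427). Canx, the chaperone calnexin of the endoplasmic reticulum, was at 496, 505 and 548 CPM with saline, 511, 536 and 518 CPM with Ang II and 740.1, 669 and 708 CPM with NaBu, and rose against both (log2 0.45 and 0.44, edgeR adjusted p = 0.0305 and 0.0498). All 3 NaBu libraries lay above the other 6 for both genes.

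Srl, Cacna2d1 and S100a1 rose against saline and did not pass the test against Ang II. Srl, which encodes the luminal protein sarcalumenin, averaged 654 ± 36.4 CPM with NaBu and 423 ± 22.1 CPM with saline (SD, n = 3; log2 0.63, edgeR adjusted p = 0.0336). Cacna2d1, an auxiliary subunit of the L-type channel, averaged 183 ± 5.02 against 123 ± 25.2 CPM (SD, n = 3; log2 0.57, edgeR adjusted p = 0.046), opposite in sign to the pore gene Cacna1c. S100a1, a calcium-binding protein that acts on the pump and the ryanodine receptor, averaged 19.6 ± 0.562 against 13.7 ± 2.02 CPM (SD, n = 3; log2 0.52, edgeR adjusted p = 0.0425). Against Ang II their edgeR adjusted p-values were 0.0543, 0.15 and 0.0653. Without saline library 2 they were 0.0226, 0.0451 and 0.0299, so that all of them passed in that fit.

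The 2 genes that fell encode other calcium release channels. Ryr3, a ryanodine receptor that is minor in heart muscle, was at 128, 116 and 99 CPM with saline, 113, 116 and 109 CPM with Ang II and 69.6, 74.7 and 67 CPM with NaBu. It fell by 0.70 on the log2 scale against saline (SE 0.107, edgeR adjusted p = 0.0156) and by 0.68 against Ang II (SE 0.107, edgeR adjusted p = 0.0372), next to a Ryr2 difference of 0.10 in both comparisons. Itpr3, an inositol trisphosphate receptor, was at 40.9, 40.2 and 33.1 CPM with saline, 40.7, 36.8 and 36.1 CPM with Ang II and 26.8, 27.6 and 24.5 CPM with NaBu, and fell against both (log2 -0.54 and -0.53, edgeR adjusted p = 0.0305 and 0.046). For Ryr3 and Itpr3 the NaBu libraries lay below the other 6.

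Markers of vessel cells were lower beside them. All 6 endothelial markers (Pecam1, Cdh5, Tek, Kdr, Tie1 and Egfl7) had lower means in the NaBu group than with Ang II or saline, 1 of them called in each comparison, with median log2 differences of -0.28 and -0.16. They summed to between 1095 and 1251 CPM with saline, 1228 and 1413 CPM with Ang II and 986 and 1152 CPM with NaBu. All 5 smooth muscle markers (Acta2, Myh11, Tagln, Cnn1 and Smtn) also had lower means, none of them called, with medians of -0.34 and -0.75. Their sums were 355, 949 and 515 CPM in saline libraries 1, 2 and 3, so the high end of saline was library 2 alone. They were 449.5 to 549 CPM with Ang II and 347 to 461 CPM with NaBu, where NaBu overlapped both other groups. The median of -0.75 against saline includes saline library 2, and its value without that library is not reported here. No marker of either list was at 0 in every library, and their part in the Ryr3 and Itpr3 differences was not tested.

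These calls rested on the full set of libraries. None of the 4 calls against Ang II (Asph, Canx, Ryr3 and Itpr3) held without any one of the 3 Ang II or 3 NaBu libraries, with adjusted p-values up to 0.191 for Ryr3 and 0.208 for Itpr3, and the 3 other than Ryr3 were also lost without saline library 1. Against saline, the Ryr3 call was lost without NaBu library 2 or 6 and held in the other 7 of 9 omissions. The calls of Asph, Srl, Cacna2d1, S100a1, Itpr3 and Canx each held in 1 to 4 of 9 omissions, and all 6 were lost without saline library 1, Ang II library 2 or 3, or NaBu library 2 or 6. Those of Srl, Cacna2d1, S100a1, Itpr3 and Canx were also lost without NaBu library 4, those of Srl, S100a1 and Itpr3 without saline library 2, and that of S100a1 without Ang II library 1. Over these omissions the log2 differences kept their sign, from 0.55 to 0.74 for Asph and from -0.79 to -0.61 for Ryr3. DESeq2 called all 11 differences, which edgeR had picked from the same counts, so this is no separate test. Of the genes to which it gave an adjusted p, it called 13.1% against Ang II and 15.2% against saline. Over 8 alternatives, DESeq2 among them, that changed the scaling, filter, gene value or groups in the fit, the 4 against Ang II were called in 5 or 6 and the 7 against saline in 3 to 6, with adjusted p-values up to 0.328 (Asph against saline).

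Among the genes of the wider list with a mean of at least 1 CPM that did not pass the test, the lowest log2 differences for Ang II against saline were those of Cacna1g (-1.65), Ppp1r3a (-1.49) and Cacna1d (-1.20). Cacna1g, a T-type channel gene, was at 19.5, 79 and 26.5 CPM with saline and at 13.8, 14 and 12 CPM with Ang II, and Cacna1d, an L-type channel gene known from atrium and pacemaker tissue, was at 4.65, 15.9 and 3.12 CPM with saline and at 3.01, 3.6 and 3.74 CPM with Ang II. For both, saline library 2 was the highest of the 9, and without it the differences were -0.80 and -0.18 (edgeR adjusted p = 0.272 and 0.914). Ppp1r3a, a regulatory subunit of protein phosphatase 1, was at 181, 22.7 and 142 CPM with saline and at 35.9, 53.5 and 33.2 CPM with Ang II, and saline library 2 was the lowest of the 9. Without that library Ppp1r3a passed the test, at -1.99 (SE 0.211, edgeR adjusted p = 0.0458). It was the only gene of the whole table called in that fit, and the call rests on saline libraries 1 and 3. The highest included Mcub (0.61) and Camk2g (0.41), or 0.41 and 0.27 without it.

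For NaBu against Ang II the lowest outside the called genes were Cacna2d3 (-1.11) and Mcub (-0.62), both with a mean under 2 CPM. The highest were Casq1 (0.88, SE 0.266, edgeR adjusted p = 0.0993) and Atp2b2 (0.67). Casq1, the calsequestrin known from fast skeletal muscle, was at 34.7, 57 and 37.8 CPM with Ang II and 62.3, 105 and 71.6 CPM with NaBu, with no overlap. Without saline library 2, Casq1 (0.90) and Atp2b2 (0.68) passed the test against Ang II (edgeR adjusted p = 0.0402 and 0.0299). Other genes of the wider list also passed in that fit, in both directions, among them Rrad (0.52) and Itpr1 (-0.35). The fit called 1482 genes in all. For NaBu against saline the lowest were Cacna2d3 (-1.88), Ppp1r3a (-1.62) and Cacna1d (-1.46), and Casq1 was the highest at 0.79. Without saline library 2 these were -1.06, -2.10, -0.43 and 0.61, and of the 4 Ppp1r3a alone was called (edgeR adjusted p = 0.00935).

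**Figure D5:**
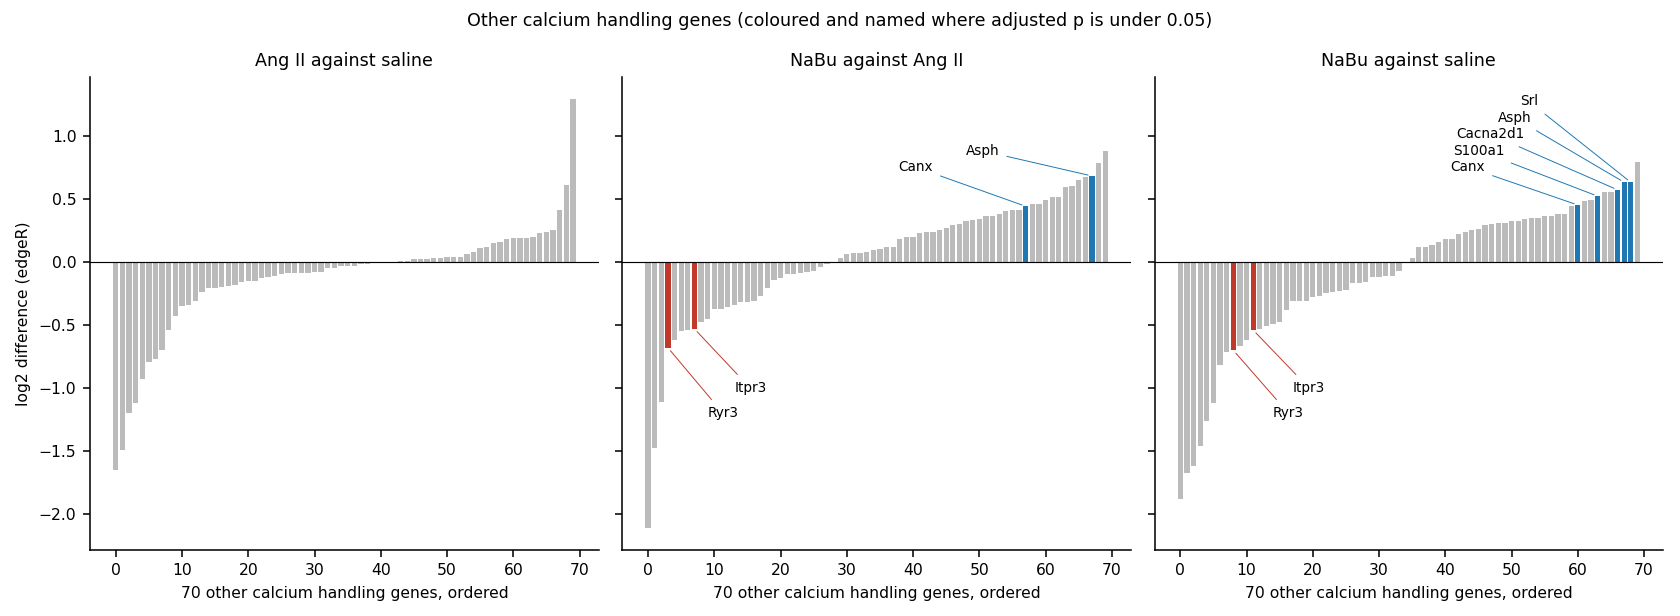
Log2 difference (vertical axis, edgeR) of each of the 70 other calcium handling genes that passed the filter, ordered from lowest to highest along the horizontal axis, in the 3 comparisons. Named and coloured bars passed the test (adjusted p under 0.05): none in Ang II against saline, 4 in NaBu against Ang II and 7 in NaBu against saline.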

How the data were processed

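Trizol extracts of rat left ventricle were turned into TruSeq RNA libraries, per the labels. GEO's design text describes another tissue, so the tissue was taken from the sample labels. The authors deposited estimated counts, as a separate table for each group, whose lines are transcripts and whose columns are libraries. In the saline table a misplaced carriage return was removed from these deposited estimated counts. Bowtie 0.12.2 and mm8, a mouse build, are named per the submitters' processing notes, although the transcripts are rat RefSeq entries. For the counting tool, annotation and strand, the answer is not given in the sources used here. Reads of paralogs such as Ryr2 and Ryr3, or of overlapping genes, may therefore be divided wrongly. Since a table holds 1 group, processing differences between tables and group differences cannot be told apart. Among genes with 1 transcript, 61.2% of the values from 2 to 21 lay at a multiple of 4 or 1 above it, where an even spread gives 50%, and 1 fragment was taken as about 4 estimated counts. Limits for 0 counts cover counting error only.

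The 55767 transcripts were summed by gene name into 22608 genes. The test was edgeR 4.0.16 under R 4.3.3 (quasi-likelihood, filterByExpr, prior count 0.125; TMM factors spanned 0.887 to 1.14). All 9 libraries were in the fit, and p-values were adjusted by Benjamini-Hochberg over 15467 genes or 31914 transcripts. A gene was called at an adjusted p under 0.05. CPM are relative to TMM-scaled totals. Alternatives used DESeq2 1.42.0, other scalings, filters and gene values, and left out libraries. The scripts were tested on simulated counts. The genes, lists, markers and tests were chosen with earlier results of these data known. The named genes are the 10 members with their transcripts over 1 CPM, called genes of the wider list, its 3 largest differences in each direction, and the 3 genes most like a member; a few of these are not reported here. Whether replicate numbers pair saline and Ang II libraries is not settled, and the main fit did not pair them.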

Additional observations from a re-analysis of the deposited data

How the results depend on the processing

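Genes called for Ang II against saline numbered 0 with all libraries, 60 in DESeq2, 1 with only the 2 groups in the fit, and 11 without saline libraries 2 and 3. For NaBu against Ang II they numbered 248 and, in the alternatives, 1541 in DESeq2, 4 with library totals in place of TMM, 3 with the highest transcript per gene, 1802 with only the 2 groups and 1695 without saline libraries 2 and 3. For NaBu against saline they numbered 782 and, in the same order, 1994, 411, 33, 9 and 109. Leaving out 1 library gave 0 to 7, 1 to 1482 and 6 to 1303 called genes in the 3 comparisons. Of the 10 calcium handling genes, those called for NaBu against Ang II went from 0 to 4 in DESeq2 and to 5 with only the 2 groups or without saline libraries 2 and 3, and those for NaBu against saline from 1 to 4 in DESeq2, 2 with library totals (Atp2a2 and Pln), and 0 with the highest transcript, with only the 2 groups, or without saline libraries 2 and 3. Leaving out 1 library gave 0 of the 10 for Ang II against saline, 0 to 5 for NaBu against Ang II and 0 to 2 for NaBu against saline, and 0 of their transcripts in each. Library totals moved the median of all genes to -0.133 (log2) for NaBu against Ang II and turned Ryr2 to -0.01. DESeq2-type size factors in edgeR, no filter on low counts and counts divided by 4 changed the number of the 10 called in no comparison.

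Signs turned for members near 0. Without saline libraries 2 and 3 a single saline library is left, assumed to vary like the other groups, and for Ang II against saline these were Atp2a2 (-0.05), Ryr2 (-0.03), Casq2 (-0.05), Jph2 (-0.09), Cacna1c (-0.03) and Hrc (0.07). Leaving out 1 library at a time gave ranges that crossed 0 for Atp2a2 (-0.11 to 0.12), Ryr2 (-0.08 to 0.08), Casq2 (-0.18 to 0.18), Jph2 (-0.18 to 0.26), Cacna1c (-0.05 to 0.08) and Hrc (-0.24 to 0.16) in that comparison and for Trdn in NaBu against saline (-0.29 to 0.03). Sln ranged from 0 to 5.64 in NaBu against Ang II, values that depend on the prior count. Trdn was 0.01 for NaBu against saline without saline libraries 2 and 3. With the highest transcript per gene, Cacna1c was -0.13, 0.25 and 0.12 in the 3 comparisons. The highest of its 5 transcripts was taken separately in each library. It was XM_006237159.3 in Ang II library 3 and NaBu library 6 and XM_017592434.1 in the others. The causes of these turns were not tested. A fit with the replicate block for Ang II against saline called 0 genes and 0 of the 10. With group means removed, same-numbered libraries correlated at -0.05, -0.056 and -0.014. Such deviations among 3 libraries a group cannot show whether the samples were paired, so pairing is not settled. For NaBu no paired analysis was possible because its columns carry other numbers.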
